A study of Mus musculus with 29 samples.

Results

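The RNA described here came from monosomes, the part of a ribosome gradient in which an mRNA carries a single ribosome, of differentiating C2C12 cells. Monosomes of the membrane fraction were set against monosomes of the cytosol fraction, by the labelled state, fraction and gradient part of each library. This comparison holds 4 of the 29 samples of the series, 2 libraries of each fraction. C2C12 is a mouse myoblast line that leaves the cell cycle, fuses and forms muscle fibres when serum is lowered. The series includes 26 libraries of 3'READS+, which reads the transcript just ahead of its poly(A) tail. Such reads give the level of a gene and also the position where its RNA ends. The 16 gradient libraries cover proliferating and differentiating cells, cytosol and membrane fractions, and polysomes and monosomes, with 2 replicates of each.

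All libraries compared came from the unmodified line, and the labels give no day of differentiation. Proliferating cells are labelled as grown in medium with 10% fetal bovine serum and the differentiating cells used for polysomes in medium with 2% horse serum. The differentiating cells used for monosomes carry the label of 10% fetal bovine serum as well, although their stated status is differentiating. RNA of the gradient samples was extracted with phenol and chloroform. The labels do not say whether replicates were separate cultures, so that p-values measure the spread between libraries, which may be technical.

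The membrane fraction contains the endoplasmic reticulum (ER). An mRNA for a secreted or membrane protein is usually brought there when the signal peptide emerges from the ribosome, is bound by the signal recognition particle and docks at the translocon. An mRNA with several ribosomes is therefore held to the membrane by several nascent chains, while an mRNA with a single ribosome has at most one. Transcripts can also be held at the ER without translation, by RNA-binding proteins that read the 3' end of the message.

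Muscle genes showed that the monosome libraries labelled differentiating came from differentiating cells, and that the replicates were unequal. Levels are given as CPM, counts scaled to a common library total after TMM normalisation, and so are shares within a library, in which fewer cells of a kind and less RNA per cell cannot be told apart. Myog, the transcription factor myogenin, had 435 and 151 CPM in membrane monosomes (replicates 1 and 2) and 659 and 94 in cytosol monosomes. In the 4 monosome libraries of proliferating cells its highest level was 2.48 CPM. Myh3, the embryonic myosin heavy chain, had 349 and 120 CPM in membrane and 663 and 150 in cytosol monosomes. The fast light chain Mylpf had 8404 and 2663 CPM in membrane and 11364 and 2347 in cytosol monosomes. Replicate 1 was above replicate 2 for these muscle genes in both fractions. Mki67, a marker of cycling cells, ran the other way, with 27.9 and 69.9 CPM in membrane and 45.2 and 110 in cytosol monosomes, against 208 to 460 in monosomes of proliferating cells. Id3 ran as Mki67 did (18.1 and 234 in membrane, 9.52 and 143 in cytosol). Top2a (6.24 and 5.99, 7.48 and 5.9) and Id1 (281 and 213, 87.7 and 72.6) did not, and Ccnb1 did in cytosol only (33.4 and 29.7, 11.9 and 24.1). Top2a and Ccnb1 lay below their levels in proliferating monosomes, while Id1 and Id3 overlapped with them.

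**Figure D1:**
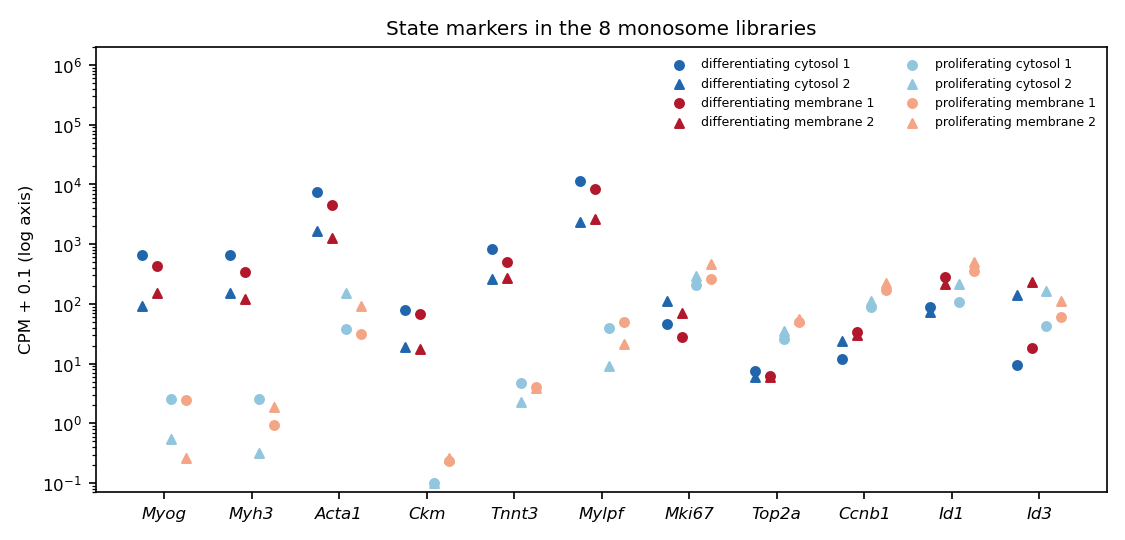
Level of 6 muscle genes and 5 genes of proliferating myoblasts in the 8 monosome libraries, as CPM plus 0.1 on a log axis, with circles for replicate 1 and triangles for replicate 2. The 4 libraries of differentiating cells lie above the 4 of proliferating cells for the muscle genes, and replicate 1 lies above replicate 2 (Myog, 659 against 94 CPM in cytosol).

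Other cell types left little trace. The macrophage and blood list (10 genes, of which Ptprc, Cd68, Emr1 and Lyz2 are in the table without a read in these libraries) summed to 0.454 to 2.72 CPM. The endothelial list of 6 genes, with Pecam1 and Emcn at 0 reads, summed to at most 1.36 CPM, and the adipocyte list of 9, with Fabp4 and Cidec at 0, to at most 5.99 CPM. The osteoblast list of 8 genes summed to 185 to 1757 CPM, nearly all from Spp1 (osteopontin) at 334 and 1746 CPM in membrane and 172 and 360 in cytosol monosomes. Depth was 4180929 and 3769222 reads in membrane and 3830525 and 2964852 in cytosol monosomes.

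In membrane monosomes of differentiating cells the collagen Col3a1, the tetraspanin Cd81, the ER enzyme Pdia3 and the protease Ctsb were among the genes that rose, and the translation factor Eif4b, the SNARE Bet1 and the ribosomal protein Rpl37a among those that fell. Of 11176 genes tested, 201 (1.8%) were higher and 56 (0.501%) lower in membrane than in cytosol monosomes at an adjusted p under 0.05 in edgeR's quasi-likelihood test. With the DESeq2 size factors in the same test the split was 128 higher and 75 lower, and the median log2 difference of all genes moved by -0.12 from 0.08. The higher genes had a median log2 difference of 2.03 and the lower genes of -1.47. In each of the 201 and the 56 the membrane and the cytosol libraries did not overlap, a state that 2908 genes (26.0% of those tested) showed with membrane above and 2123 (19.0%) with membrane below. With a term for the replicate number, 1497 genes (13.4%) were higher and 1097 (9.82%) lower, and these included each of the 201 and the 56. The counts depend on single libraries. Without cytosol replicate 1 the test called 2 higher and 0 lower, without cytosol replicate 2 it called 24 and 4, without membrane replicate 1 it called 37 and 0, and without membrane replicate 2 it called 32 and 0. Of 50 called genes described here and followed through each leave-out, Cd81 alone passed in all 4, and 30 passed in none, with adjusted p up to 0.287. Col3a1, Mmp14, Pdia3 and Msh3 lost their calls only without cytosol replicate 1, and Cstf2t and Fbn1 only without either cytosol library. Bet1 and Ctsb kept theirs in 1 leave-out. Those that passed in none included the lower genes Eif4b, Rpl37a, Rplp0, Gng10, Fxr1, Atp5o, Atp5k, Stx8, Snrnp25 and Lsm6. They also included the higher genes Col5a2, Thbs2, Fn1, Postn, Cd248, Sdc1, Itgb1, Tspan3, Tusc3, Scarb2, Naglu, Sqle, Id1, Fosl2, Dusp1, Rraga and Mpp1.

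Collagens and other matrix proteins, which are made on ER ribosomes and secreted, were among the genes that rose in membrane monosomes. Of 37 members tested, 9 were higher and 0 lower (25 and 0 with the replicate term). The share of all genes tested that was higher was 1.8% (13.4% with the replicate term). Both membrane libraries lay above both cytosol libraries in 27 members, a state that 26.0% of all genes tested showed. The median log2 difference of the list was 1.81 beside 0.08 over all genes, and it was 1.77 between the replicates numbered 1 and 1.71 between those numbered 2. Col3a1, a fibrillar collagen, had 5906 and 6257 CPM in membrane and 257 and 326 in cytosol monosomes, a log2 difference of 4.38 (SE 0.53, adjusted p = 0.00702). The fractions were thus far apart, and the replicates of each were close together. Col5a2, which regulates collagen fibre diameter, rose by 3.44 (SE 0.80, adjusted p = 0.0444), with 62.2 and 73.2 CPM against 6.46 and 5.90. The microfibril protein Fbn1 had 398 and 280 CPM against 61.9 and 32.2, and the membrane-anchored protease Mmp14 had 104 and 149 against 11.9 and 22.7. Both rose, by 2.84 and 2.88 on the log2 scale. Fn1, the matrix glycoprotein fibronectin, had 1020 and 1004 CPM against 265 and 332 (log2 1.76, adjusted p = 0.0157). The thrombospondin Thbs1 (log2 2.38) rose as well, as did Postn (1.72), which encodes periostin. Col18a1 and Timp2 were the remaining called members. Thbs2, a related thrombospondin outside the list, rose by 3.30. Bgn, the small proteoglycan biglycan, did not follow, with 2179 and 2664 CPM in membrane and 3052 and 5536 in cytosol monosomes (log2 -0.83, adjusted p = 0.463). Sparc, a collagen-binding glycoprotein, had 1535 and 704 CPM against 370 and 268. Its groups did not overlap, but its log2 difference of 1.81 had an SE of 0.57 and an adjusted p of 0.109 (7.03e-06 with the replicate term).

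Adhesion receptors and tetraspanins, membrane proteins that organise integrins at the cell surface, were also among the genes that rose in membrane monosomes. Of 35 members tested, 9 were higher and 0 lower (22 and 0 with the replicate term), and the median log2 difference was 1.04. The share of all genes tested that was higher was 1.8%, or 13.4% with the replicate term. Cd81, a tetraspanin that takes part in myoblast fusion, had 311 and 253 CPM in membrane and 32.6 and 20.9 in cytosol monosomes. Its log2 difference was 3.39 (SE 0.37, adjusted p = 0.00443), and it ranged from 3.12 to 3.76 when each of the 4 libraries was left out in turn. Cd82, another tetraspanin, had 127 and 162 CPM against 36.7 and 34.1 (log2 2.03). Itgb1, the integrin beta subunit shared by most matrix receptors, had 74.2 and 62.9 CPM against 12.6 and 15.0, and its partner Itgav had 130 and 191 against 22.8 and 33.1. Their log2 differences were 2.32 and 2.52, each with an adjusted p of 0.0157. The syndecan Sdc1 (log2 3.03) and the tetraspanin Tspan3 (2.83) rose too, and the other called members were Itgb5, Cd9 and Sdc2. Itga5, the fibronectin receptor subunit, had 530 and 326 CPM against 78.9 and 109, with a log2 difference of 2.19 that missed the threshold (adjusted p = 0.0695; 3.44e-07 with the replicate term). Cd63, a tetraspanin of late endosomes, had 7359 and 8844 CPM in membrane and 2676 and 5024 in cytosol monosomes (log2 1.07, adjusted p = 0.214; 0.00198 with the replicate term).

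Growth factors and their receptors had a median log2 difference of 1.25 over 30 members, with 1 called higher, 0 lower (11 and 0 with the replicate term) and 18 in which the libraries did not overlap with membrane above. Over all genes tested, 1.8% were called higher, 13.4% with the replicate term, and 26.0% did not overlap with membrane above. The called member was Pdgfrb, the receptor of platelet-derived growth factor, with 63.7 and 111 CPM against 17.0 and 20.0 (log2 2.24, SE 0.41, adjusted p = 0.0166). Tgfb1, the ligand that restrains myoblast differentiation, had 868 and 1181 CPM against 320 and 465 and narrowly missed the threshold (log2 1.38, adjusted p = 0.0511; 0.000126 with the replicate term). Cd248, a transmembrane protein of mesenchymal cells, rose by 3.26 on the log2 scale, from 12.6 and 12.3 CPM in cytosol to 133 and 106 in membrane monosomes. The cargo receptor Tmed7, which works between ER and Golgi, rose by 2.92.

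**Figure D2:**
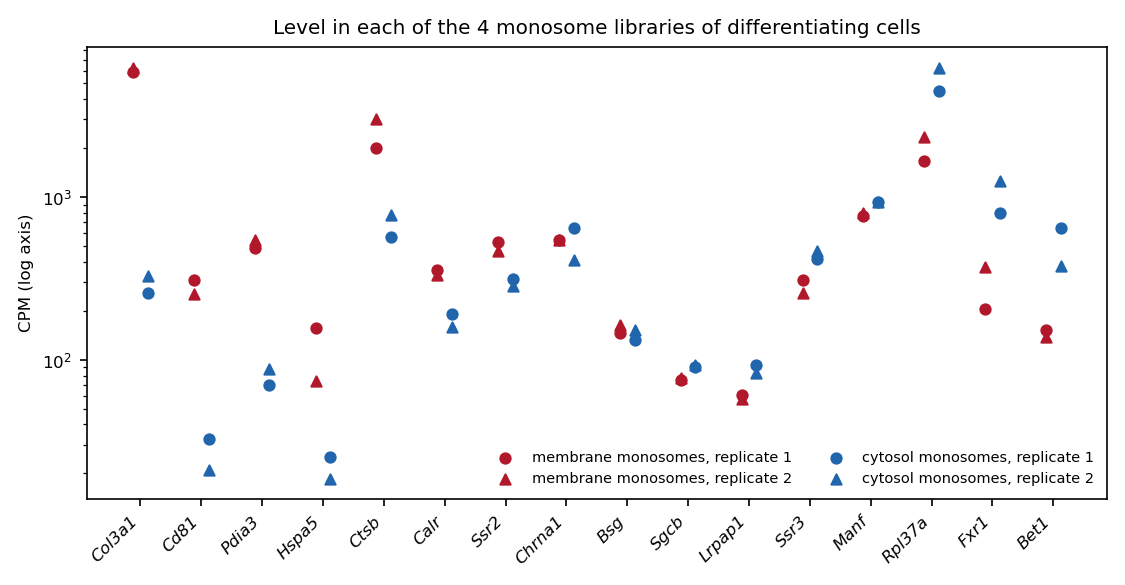
CPM on a log axis of 16 genes in the 4 monosome libraries of differentiating cells, red for membrane and blue for cytosol, circles for replicate 1 and triangles for replicate 2. Col3a1, Cd81, Pdia3, Hspa5 and Ctsb are higher in both membrane libraries, Chrna1 and Bsg overlap between fractions, and Rpl37a, Fxr1 and Bet1 are lower in both membrane libraries.

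ER chaperones and folding enzymes, which act on proteins inside the ER, divided in monosomes. Of 21 members tested, 2 were higher and 0 lower (8 and 1 with the replicate term), and the median log2 difference was 0.40. All genes tested gave 1.8% higher and 0.501% lower, or 13.4% and 9.82% with the replicate term. Pdia3, a disulfide isomerase of glycoprotein folding, had 484 and 545 CPM in membrane and 69.7 and 87.2 in cytosol monosomes (log2 2.71, SE 0.36, adjusted p = 0.00864). Hspa5, the ER Hsp70 chaperone BiP, had 156 and 73.5 CPM against 25.2 and 18.6 (log2 2.39, SE 0.47, adjusted p = 0.0254). Calr, the lectin chaperone calreticulin, had 354 and 330 CPM against 192 and 158, a log2 difference of 0.97 that did not pass (adjusted p = 0.174; 0.00652 with the replicate term). Manf, a small secreted ER stress protein, had 770 and 793 CPM in membrane and 937 and 933 in cytosol monosomes. Both of its membrane values were thus below both cytosol values, with a log2 difference of -0.26 and an adjusted p of 0.737.

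The machinery of the ER entry site, comprising translocon, signal peptidase and oligosaccharyltransferase subunits, had 1 called member of 25 (3 higher and 1 lower with the replicate term) and a median log2 difference of 0.12. Of all genes tested, 1.8% were called higher, and with the replicate term 13.4% were higher and 9.82% lower. Tusc3, an oligosaccharyltransferase subunit, rose from 57.1 and 94.4 CPM in cytosol to 233 and 264 in membrane monosomes (log2 1.72, SE 0.32, adjusted p = 0.0178). Ssr2, a translocon-associated subunit, had 528 and 464 CPM against 314 and 286 (log2 0.73, adjusted p = 0.266; 0.0324 with the replicate term). Tram1, which sits beside the translocon, had 37.0 and 49.5 CPM against 79.5 and 74.5 (log2 -0.83, adjusted p = 0.153; 0.00937 with the replicate term).

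Lysosomal proteins enter the ER on their way to the lysosome, and 3 of 30 were higher and 0 lower in membrane monosomes (11 and 1 with the replicate term), with a median log2 difference of 0.63. All genes tested gave 1.8% higher and 0.501% lower, or 13.4% and 9.82% with the replicate term. The protease Ctsb had 1995 and 3009 CPM against 566 and 774 (log2 1.90, SE 0.33, adjusted p = 0.0156). Scarb2, the receptor that carries glucocerebrosidase, had 46.4 and 39.5 CPM against 7.48 and 8.63 (log2 2.42), and Naglu, an enzyme of heparan sulfate breakdown, rose by 2.38. The protease Ctsd, at 2863 and 1724 CPM against 2219 and 1240, had overlapping libraries and a log2 difference of 0.41 (adjusted p = 0.712). Npc2, a soluble sterol carrier, had 1857 and 4116 CPM in membrane and 4141 and 8793 in cytosol monosomes (log2 -1.11, adjusted p = 0.325; 0.00618 with the replicate term). In sterol synthesis 1 of 28 genes was higher and 0 lower (8 and 2 with the replicate term). That gene was Sqle, squalene epoxidase, at 309 and 271 CPM against 84.3 and 39.0 (log2 2.23, adjusted p = 0.0157).

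Among the proteins of the muscle surface and the sarcoplasmic reticulum, the calcium store of the muscle fibre, the calls were near the 1.8% of all genes tested that were higher. With the replicate term 13.4% of all genes tested were higher and 9.82% lower. The dystrophin and sarcolemma list had 0 of 22 called in either direction by edgeR's test (2 higher and 0 lower at an unadjusted p under 0.05, 1 and 0 with DESeq2, 3 and 1 with the replicate term) and a median log2 difference of 0.15. Sarcoplasmic reticulum and calcium handling genes had 1 of 23 called higher and 0 lower (4 and 2 with the replicate term), with a median of 0.54. The called gene was Atp2a2, the calcium pump of this membrane, with 29.9 and 13.1 CPM against 4.42 and 1.82 (log2 2.74, SE 0.56, adjusted p = 0.0282). Chrna1, the acetylcholine receptor subunit, had 543 and 541 CPM in membrane and 650 and 411 in cytosol monosomes, so that the libraries overlapped.

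Sarcomere proteins, which are made in the cytosol, had 0 of 39 members called by edgeR's test, 0 at an unadjusted p under 0.05 and 0 with DESeq2. With the replicate term 1 was higher and 7 were lower, beside 13.4% and 9.82% of all genes tested. The median log2 difference of the list was -0.54, and it was -0.71 between the replicates numbered 1 and -0.16 between those numbered 2. Des, the intermediate filament desmin, had 816 and 626 CPM in membrane and 1585 and 1043 in cytosol monosomes (log2 -0.87, adjusted p = 0.274; 0.0063 with the replicate term). Actn3, the alpha-actinin of fast fibres, had 200 and 73.7 CPM against 585 and 188, with overlap (log2 -1.49, adjusted p = 0.345; 5.63e-05 with the replicate term). These genes differ between replicates along with the muscle markers above, and the part of that in the missed calls was not tested. Myogenic regulators had 1 of 16 called higher, and 5 higher and 3 lower with the replicate term. The called gene was Id1, an inhibitor of myogenic transcription factors, at 281 and 213 CPM against 87.7 and 72.6 (log2 1.62, SE 0.37, adjusted p = 0.0416).

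Ribosomal protein genes, whose products are translated on free ribosomes, lay lower in membrane monosomes in most cases. Of 69 members tested, 2 were called lower and 0 higher, but in 56 both membrane libraries lay below both cytosol libraries and in 0 above them. The median log2 difference was -1.12, and it was -1.16 between the replicates numbered 1 and -1.04 between those numbered 2. With the replicate term 47 were lower and 0 higher. Over all genes tested, 0.501% were called lower, 9.82% with the replicate term, and both membrane libraries lay below in 19.0%. Rpl37a fell by 1.41 on the log2 scale (SE 0.32, adjusted p = 0.0416), with 1666 and 2346 CPM in membrane and 4479 and 6180 in cytosol monosomes. Rplp0, part of the ribosomal stalk, fell by 1.40 (adjusted p = 0.0494), from 1197 and 1787 CPM to 452 and 681. Rps20 shows the replicate spread at high level, with 12968 and 38777 CPM in membrane and 30652 and 83553 in cytosol monosomes (adjusted p = 0.374; 0.00148 with the replicate term). Reads of such genes may be divided with near-identical pseudogenes, which makes their values uncertain.

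Translation factors had 1 of 36 called lower and 0 higher (20 lower and 3 higher with the replicate term), with a median log2 difference of -0.82. All genes tested gave 0.501% lower and 1.8% higher, or 9.82% and 13.4% with the replicate term. Eif4b, which helps the initiation helicase, had 404 and 599 CPM against 1249 and 2449 (log2 -1.88, SE 0.41, adjusted p = 0.0403). Eef2, the translocase of elongation, had 6231 and 11278 CPM in membrane and 14886 and 24790 in cytosol monosomes (log2 -1.18, adjusted p = 0.157; 0.00202 with the replicate term), without overlap. Nuclear-encoded subunits of the respiratory chain had 1 called in each direction of 65 (2 higher and 22 lower with the replicate term) and a median of -0.44. Atp5o, a subunit of ATP synthase, fell from 1205 and 1338 CPM to 422 and 570 (log2 -1.36, adjusted p = 0.0444). Ndufs1, a large complex I subunit, went the other way, with 29.4 and 23.4 CPM in membrane and 5.10 and 5.90 in cytosol monosomes (log2 2.27, adjusted p = 0.0152).

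Tail-anchored proteins, whose membrane segment leaves the ribosome only after translation ends, had 2 of 43 members called lower and 0 higher (10 lower and 5 higher with the replicate term), with a median of -0.38. The share of all genes tested that was lower was 0.501%. With the replicate term 9.82% of all genes were lower and 13.4% higher. Bet1, a SNARE of ER to Golgi transport, had 152 and 138 CPM against 645 and 378 (log2 -1.82, SE 0.30, adjusted p = 0.0148), and the endosomal SNARE Stx8 had 289 and 333 against 693 and 762 (log2 -1.23, adjusted p = 0.0453). The other genes with the largest falls included Gng10, a G protein gamma subunit (510 and 686 CPM against 2167 and 2177, log2 -1.86), and Fxr1, an RNA-binding protein of muscle (206 and 373 against 793 and 1264, log2 -1.83). Tmem183a (log2 -1.76), the ATP synthase subunit Atp5k (-1.70), the splicing proteins Snrnp25 (-1.67) and Lsm6 (-1.61) and the RNA polymerase III factor Gtf3c6 (-1.62) fell as well.

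**Figure D3:**
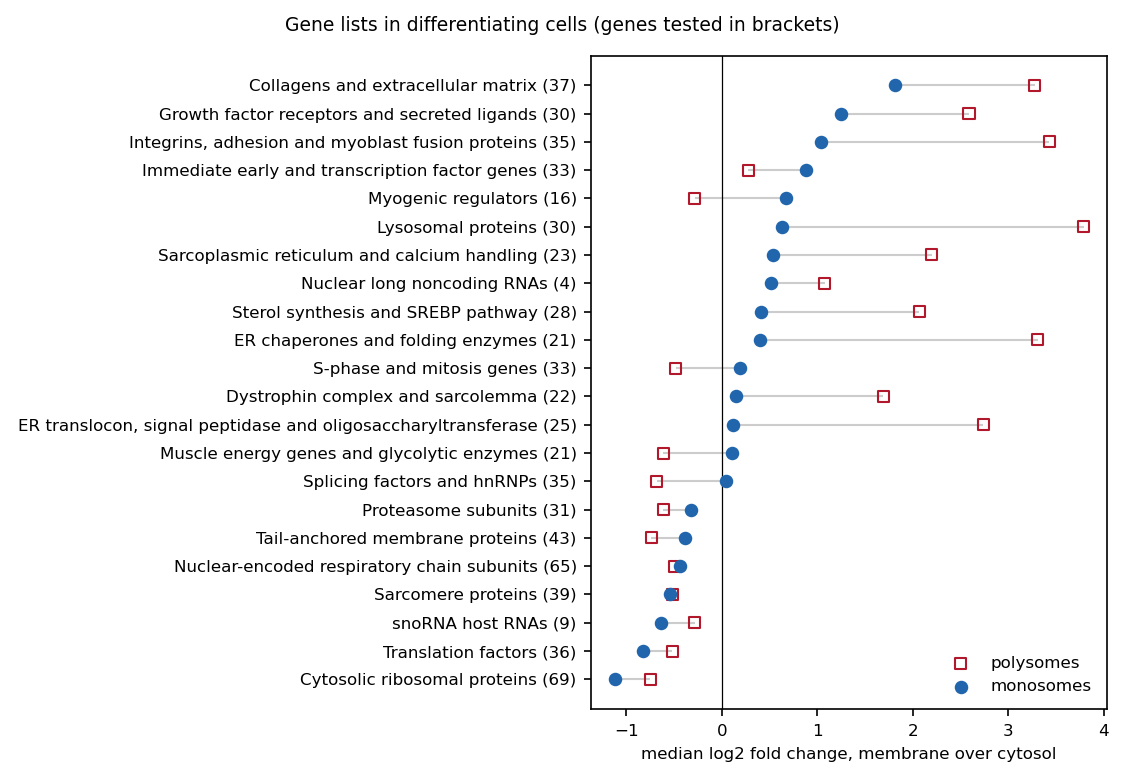
Median log2 fold change of membrane over cytosol for 22 gene lists in differentiating cells, filled circles for monosomes and open squares for polysomes, with the number of genes tested in brackets. Matrix proteins have the highest median in monosomes (1.81) and ribosomal proteins the lowest (-1.12), and the lists of ER, lysosomal and adhesion proteins lie further right in polysomes.

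The largest rises included 3 genes for nuclear proteins, singled out after their values were seen. Cstf2t, an intronless relative of the cleavage stimulation factor that acts in polyadenylation, had 1377 and 1542 CPM in membrane and 33.3 and 40.9 in cytosol monosomes, a log2 difference of 5.30 (SE 0.69, adjusted p = 0.00864). Msh3, a mismatch repair protein, had 80.0 and 42.7 CPM against 3.06 and 5.45 (log2 3.87, SE 0.57, adjusted p = 0.0118). Zbtb5, a zinc finger transcription factor, had 26.3 and 67.2 CPM against 2.72 and 6.81 (log2 3.32, adjusted p = 0.0166). Among immediate early and transcription factor genes, which are transcribed within minutes of a stimulus and whose RNAs are short-lived, 2 of 33 were called higher and 0 lower (17 and 0 with the replicate term), with a median of 0.88. Both membrane libraries lay above both cytosol libraries in 19 and below them in 2, beside 26.0% and 19.0% of all genes tested. The share of all genes called higher was 1.8%, or 13.4% with the replicate term. Dusp1, a MAP kinase phosphatase, had 133 and 94.2 CPM against 27.5 and 23.6 (log2 2.15, adjusted p = 0.0405), and the AP-1 subunit Fosl2 had 78.4 and 104 against 29.9 and 28.1 (log2 1.65, adjusted p = 0.0283).

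Long noncoding RNAs held in the nucleus serve as a check on nuclear RNA in the membrane fraction. Neat1, the scaffold of paraspeckles, had 22.3 and 164 CPM in membrane and 5.44 and 9.99 in cytosol monosomes, without overlap (log2 3.61, SE 0.94, adjusted p = 0.0647; 2.55e-08 with the replicate term). Its level in membrane replicate 2 was far above that in replicate 1. The 4 tested members of the nuclear list had a median log2 difference of 0.52, with 0 called by edgeR's test (1 higher at an unadjusted p under 0.05, with DESeq2 and with the replicate term), and Malat1 had at most 4.90 CPM in any of the 4 libraries. Its log2 difference was 0.54. The libraries overlapped for Xist (log2 -0.28, at most 11.2 CPM) and Tug1 (0.50, at most 7.89 CPM), so that the check rests mostly on Neat1. The part of nuclear RNA in the rises was not tested. Of 139 genes that RefSeq classes as lncRNA, both membrane libraries lay above in 20 (14.4%) and below in 42 (30.2%), beside 26.0% and 19.0% of all genes tested, and their median was -0.39. H19, an imprinted noncoding RNA induced in muscle cells, had 16475 and 13530 CPM in membrane and 21991 and 15598 in cytosol monosomes (adjusted p = 0.86), with overlapping libraries.

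Splicing factors (35 genes, median log2 difference 0.05), proteasome subunits (31, -0.32), glycolytic and muscle energy genes (21, 0.11) and S-phase and mitosis genes (33, 0.19) had 0 members called in monosomes by edgeR's test. At an unadjusted p under 0.05 these lists, in this order, had 5 higher and 4 lower, 1 and 1, 0 and 1, and 4 and 2. DESeq2 called 1 higher and 4 lower, 0 and 1, 0 and 0, and 0 and 1, and the replicate term gave 6 and 3, 1 and 7, 0 and 1, and 4 and 3. Of the 11176 genes tested, DESeq2 called 429 higher and 413 lower, and the replicate term 13.4% higher and 9.82% lower. At an unadjusted p under 0.05 there were 2060, both directions together. Aldoa, the muscle aldolase, had 16132 and 16808 CPM in membrane and 27737 and 19761 in cytosol monosomes (log2 -0.53, adjusted p = 0.444). The 9 hosts of small nucleolar RNAs tested, whose spliced RNAs are bound by ribosomes and decay during translation, had 0 called by edgeR's test (1 higher and 1 lower at an unadjusted p under 0.05, 0 and 1 with DESeq2, 0 and 4 with the replicate term). Both membrane libraries lay below in 7, beside 19.0% of all genes tested.

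The same comparison in polysomes, with no library in common, showed a wider gap between fractions for ER clients. In polysomes of differentiating cells 1465 genes (13.1%) were higher and 225 (2.01%) lower in membrane than in cytosol. The difference between the comparisons was tested as a contrast of contrasts in the same fit. It was lower in monosomes than in polysomes for 406 genes (3.63%) and higher for 52 (0.465%). With the replicate term it was lower for 1382 (12.4%) and higher for 707 (6.33%). Leaving out 1 of the 8 libraries gave 177 to 292 lower and 7 to 26 higher. The fewest lower calls came without cytosol polysome replicate 1, and without membrane monosome replicates 1 and 2 there were 211 and 209. The extraction label is the same for both gradient parts, but the labelled medium differs between them, so that medium and gradient part cannot be told apart.

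Among the lists, a smaller membrane difference in monosomes was called most often in the ER, lysosomal and adhesion lists. It was called for 3.63% of all genes tested, or 12.4% with the replicate term. Of 21 ER chaperones, 13 were lower and 0 higher in this test (17 and 0 with the replicate term), with medians of 0.40 in monosomes and 3.31 in polysomes. Manf, described above, had 1001 CPM (SD 36.9, n = 2) in membrane and 86.2 (SD 29.4) in cytosol polysomes, a log2 difference of 3.54. Its monosome difference was lower by 3.80 (SE 0.51, adjusted p = 0.00176). Pdia6, a disulfide isomerase, had 78.7 and 59.6 CPM in membrane and 61.5 and 68.1 in cytosol monosomes, and its difference of differences was -4.57 (SE 0.50, adjusted p = 0.000848). Calr had a value of -2.99. Of 25 translocon, signal peptidase and oligosaccharyltransferase genes, 15 were lower and 0 higher (20 and 0 with the replicate term), with medians of 0.12 and 2.74. Rpn1, the ribophorin of that transferase, had 127 and 85.2 CPM in membrane and 124 and 100 in cytosol monosomes and a value of -4.41 (SE 0.48, adjusted p = 0.000848). The values of Ssr2 (-3.49), Ssr3 (-3.22), Tram1 (-2.68) and Tusc3 (-1.87) were called as well.

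Of 30 lysosomal genes, 13 were lower and 0 higher in this test (28 and 0 with the replicate term), with medians of 0.63 in monosomes and 3.79 in polysomes. Ctsd had a value of -3.83 and Ctsb of -2.36. The adhesion list had 10 lower and 0 higher of 35 (24 and 0 with the replicate term), with Cd63 at -3.41. Bsg, the surface glycoprotein basigin, had 147 and 163 CPM in membrane and 132 and 152 in cytosol monosomes, overlapping, against 510 (SD 70.3, n = 2) and 16.8 (SD 3.95) in polysomes. Its value was -4.79 (SE 0.84, adjusted p = 0.00626). The matrix list had 6 lower and 0 higher of 37 (17 and 0 with the replicate term), and Col3a1 differed by -0.61 (SE 0.66, adjusted p = 0.768), with log2 4.38 in monosomes and 4.99 in polysomes.

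The genes with the largest such differences were spread over these roles. H47, which encodes the ER selenoprotein of the degradation channel, had 14.0 and 7.62 CPM in membrane and 12.9 and 16.3 in cytosol monosomes, against 29.2 (SD 1.33, n = 2) and 0.90 (SD 0.138) in polysomes. Its value was -5.40 (SE 0.58, adjusted p = 0.000848). Lrpap1, the ER escort of lipoprotein receptors, had 60.4 and 57.1 CPM in membrane and 92.5 and 82.6 in cytosol monosomes, below in both libraries, and a value of -5.18. Sgcb, beta-sarcoglycan of the dystrophin complex, had 75.3 and 76.7 CPM against 90.4 and 93.1, and a value of -5.13 (SE 0.49, adjusted p = 0.000769). The secreted muscle hormone listed as Fam132b (-4.86) and Chrna1 (-3.55) were lower too. Of 23 named genes called in this test, 12 passed in each of the 8 leave-outs, namely H47, Lrpap1, Sgcb, Bsg, Manf, Pdia6, Rpn1, Calr, Ssr2, Tram1, Cd63 and Chrna1. Of the others, Ssr3 and Tusc3 passed in 1, Rsu1 in 2, Fam132b and Mpp1 in 3, D4Wsu53e and Sec22b in 4, Rraga in 5, and Msh3, Ctsb and Ctsd in 6.

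**Figure D4:**
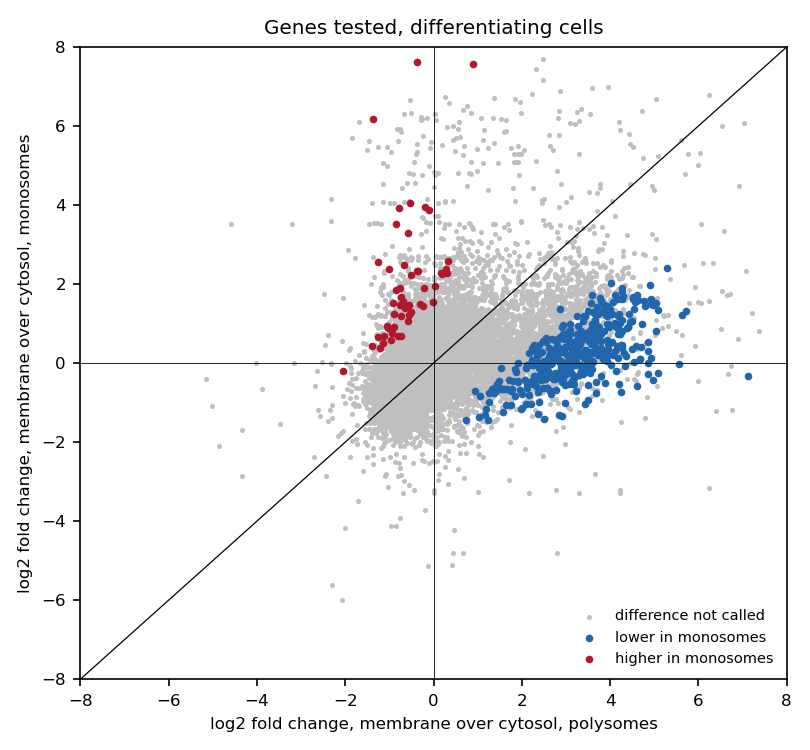
Log2 fold change of membrane over cytosol in polysomes (x axis) and monosomes (y axis) of differentiating cells for the genes tested, with 1 gene outside the axes and the line of equal change. The 406 genes called lower in monosomes lie to the right and below the line, and the 52 called higher lie above it near a polysome value of 0 or under it.

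A smaller group had the larger membrane difference in monosomes. Msh3 differed by 3.98 (SE 0.78, adjusted p = 0.0107), with 2.93 CPM (SD 1.13, n = 2) in membrane and 3.15 (SD 0.484) in cytosol polysomes. Rraga, a small GTPase of nutrient sensing, had 14.7 and 17.4 CPM against 2.72 and 3.63 in monosomes, while polysomes held 24.8 (SD 4.31, n = 2) and 31.7 (SD 0.309). Its value was 2.70 (SE 0.54, adjusted p = 0.0124). The scaffold protein Mpp1 (2.40), the adhesion adaptor Rsu1 (2.27), the gene listed as D4Wsu53e (2.25) and the tail-anchored SNARE Sec22b (1.93) were higher as well. Of the 201 genes higher in membrane monosomes, 127 were also called higher in polysomes (63.2% of these 201 and 8.67% of the 1465 called there), beside 13.1% of all genes tested. A called difference between the gradient parts, in either direction, was found in 40. These include Ctsb (-2.36) and Tusc3 (-1.87), whose membrane difference was smaller in monosomes. Of the 56 lower genes, 25 were also called lower in polysomes (44.6%, and 11.1% of the 225, beside 2.01% of all genes tested) and 3 had a called difference in either direction. That difference was called lower for 3.63% and higher for 0.465% of all genes tested. The monosome value that selected the 201 and the 56 is also part of that difference, so the counts of 40 and 3 are description only.

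Proliferating cells gave larger counts in monosomes, 1084 higher (9.7%) and 716 lower (6.41%), yet a difference between the states was hardly detectable. The test of that difference called 0 genes in either direction with edgeR, and DESeq2 called 2 higher and 3 lower. At an unadjusted p under 0.05 there were 549 of 11176, about as many as that threshold would pass if no gene differed. With the replicate term 69 (0.617%) were higher and 112 (1.0%) lower in differentiating cells. The genes with the lowest p included Zfp597, a zinc finger gene, with 10.3 and 9.80 CPM in membrane and 15.3 and 13.6 in cytosol monosomes. Its difference between the states was -2.96 (adjusted p = 0.761; 0.000959 with the replicate term). Mcm5, a subunit of the replicative helicase, had a value of -1.95 (adjusted p = 0.929; 0.0169 with the replicate term), with log2 -1.24 in differentiating and 0.71 in proliferating monosomes. Rpl7, with at most 4.54 CPM in these libraries, and the interferon receptor Ifnar2 differed by -3.71 and -2.74, with adjusted p of 0.929 and 0.96 (0.00693 and 0.00525 with the replicate term). Of the 201 genes higher in membrane monosomes of differentiating cells, 168 were also called higher in those of proliferating cells (83.6%, and 15.5% of the 1084). Of the 56 lower genes, 49 were called lower there (87.5%, and 6.84% of the 716).

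For several lists of ER-made proteins the median in monosomes was lower in differentiating than in proliferating cells, and for the sarcoplasmic reticulum and calcium handling list it was not (0.54 and 0.41). The median over all genes tested was lower too, at 0.08 and 0.21. With the replicate term 1.0% of all genes were lower and 0.617% higher in the differentiating state. ER chaperones had 0.40 in differentiating and 1.41 in proliferating monosomes, and with the replicate term 4 of 21 were called lower in the differentiating state and 0 higher. Lysosomal genes had 0.63 and 1.61 (3 of 30 lower), matrix genes 1.81 and 2.54 (3 of 37 lower) and translocon genes 0.12 and 1.12 (3 of 25 lower). Ribosomal proteins had -1.12 and -1.73, with 2 of 69 called higher and 1 lower. In the edgeR test without the replicate term none of these members was called for the state.

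The position of the transcript end was compared within genes, which removes the level of the gene. A pair was formed by the most abundant positions of a gene, and the site further along the transcript is called distal. A longer 3' untranslated region carries more binding sites for RNA-binding proteins and microRNAs. Of 4553 pairs, with a median of 677 nt between sites, 0 showed more distal use in membrane monosomes and 1 (0.022%) more proximal use at an adjusted p under 0.05 in edgeR's test, with 272 at an unadjusted p under 0.05. With the replicate term 30 pairs (0.659%) were more distal and 10 (0.22%) more proximal. The distal share was above in both membrane libraries in 811 pairs (17.8%) and below in both in 582 (12.8%). Without any 1 of the 4 libraries the single call was lost.

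That call was Msh3, on the minus strand of chromosome 13, with sites at 92990202 (proximal) and 92981841 (distal) in mm9. The distal site took 4.46% and 3.18% of the reads of the pair in membrane monosomes and 77.8% and 81.8% in cytosol monosomes (log2 -6.58, SE 0.92, adjusted p = 0.00794). The cytosol shares rest on few reads. The proximal site had 343 and 152 reads in membrane and 2 and 2 in cytosol libraries, and the distal site had 16 and 5 against 7 and 9. The rise of Msh3 in membrane monosomes thus lay at the proximal site, 8361 nt upstream. Whether that site is in an intron or in the last exon is not given in the sources used here.

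Other pairs were called only with the replicate term. In Vapb, an ER membrane protein that tethers other organelles, the distal site on chromosome 2 (plus strand, 173609840 in mm9) took 7.61% and 7.14% in membrane and 0 of 120 and 0 of 114 reads in cytosol monosomes, which allows up to 2.5% and 2.63% by counting error (adjusted p = 0.156; 0.00758 with the replicate term). In Gemin4, a component of the spliceosome assembly complex, the distal site (chromosome 11, minus strand, 76024073) took 93.9% and 93.5% against 70.0% and 66.7% (adjusted p = 0.326; 0.00282). In Lgals8, a galectin that marks damaged vesicles, it (chromosome 13, minus strand, 12531682) took 80.3% and 80.5% against 44.2% and 52.3% (adjusted p = 0.629; 0.00129). In Psmd9, a proteasome assembly chaperone, the sites lay 435 nt apart and the distal took 79.0% and 71.8% against 62.9% and 48.5% (adjusted p = 0.629; 0.000449). The fractions did not overlap in any of these pairs.

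Spast, the microtubule-severing enzyme spastin, had 30.8% and 37.0% distal in membrane and 9.04% and 12.8% in cytosol monosomes, at 2629 nt between sites. Mrpl16, a mitochondrial ribosomal protein, had 16.7% and 21.4% against 1.71% and 5.95%. The membrane protein Tmem19 had 17.7% and 14.2% against 5.73% and 3.43%, and Zfp87, a zinc finger gene, had 58.4% and 47.7% against 26.6% and 20.9%. Each passed only with the replicate term, with adjusted p of 0.00684, 0.00758, 0.00789 and 0.00235. The other direction, again called with the replicate term alone, held the ribosomal proteins Rpl27a (31.0% and 20.2% against 45.3% and 37.5%, adjusted p = 0.00129) and Rpl22 (25.9% and 44.2% against 48.2% and 53.4%, adjusted p = 0.00542). Gsk3b, a kinase of Wnt and insulin signalling, had 64.1% and 38.8% distal against 89.9% and 62.9%, so that its libraries overlapped although each numbered pair moved down (adjusted p = 0.781; 0.00789 with the replicate term). In Pcbd2 the distal share was 84.8% and 88.1% against 98.9% and 92.6%.

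**Figure D5:**
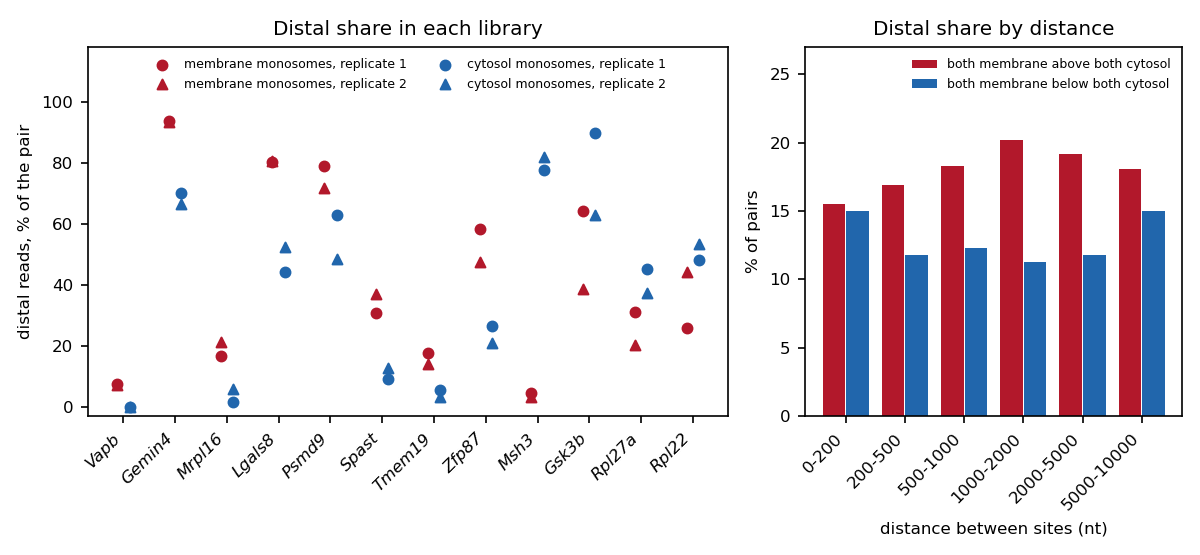
Left, distal reads as a percentage of the pair for 12 genes in the 4 monosome libraries of differentiating cells (red membrane, blue cytosol, circles replicate 1, triangles replicate 2). Right, percentage of pairs whose distal share was above or below in both membrane libraries, by distance between sites, with 15.5% above and 15.0% below up to 200 nt and 20.2% above and 11.3% below between 1000 and 2000 nt.

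Both membrane libraries had a higher median distal use than both cytosol libraries. After 1 read was added to each site, the median over pairs of log2 distal over proximal reads was 0.45 and 0.52 in membrane and 0.24 and 0.32 in cytosol monosomes. The difference of 0.20 was larger than the spread within either fraction, but with 2 libraries against 2 the two-sided exact permutation test cannot go below its value of p = 0.333. The median of the fitted log2 differences over all 4553 pairs was smaller, 0.12, with 56% of pairs more distal in membrane. By distance, this median was 0.00 in 1182 pairs at most 200 nt apart, 0.10 up to 500 nt, 0.18 up to 1000 nt and 0.21 up to 2000 nt. It was 0.34 in 729 pairs between 2000 and 5000 nt and 0.21 in 226 pairs beyond that. The median distal use per library in the other gradient groups was 0.58 and 0.74 in membrane and 0.42 and 0.58 in cytosol polysomes of differentiating cells, 0.49 and 0.44 against 0.19 and 0.26 in monosomes of proliferating cells, and 0.51 and 0.45 against 0.22 and 0.26 in their polysomes. Because the table names no gene regions, a pair may join sites of different last exons or of an intron as well as sites within the same 3' untranslated region.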

How the data were processed

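The authors deposited a table of poly(A) sites whose columns, per the file headers, hold read counts of the 3' end libraries. The submitters' processing notes name mm9, cutadapt, Bowtie2 and STAR 2.5.2 without roles, and how reads were counted is not given in the sources used here. Of 125369 entries under 17005 symbols, 651 positions listed under more than 1 symbol (0.3% of reads) were left out, 25 symbols read as dates were kept, and reads were summed per symbol. Of 13889 genes with a read in the 4 libraries, 11176 passed filterByExpr. The RNA-seq table was not used here.

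The 16 gradient libraries (2964852 to 8237846 reads) were fitted together with edgeR 4.0.16 (TMM, robust quasi-likelihood F test, 1 mean per group) in R 4.3.3, with Benjamini-Hochberg adjustment over all genes at 0.05. Each SE was taken as the log2 difference over the root of its F value. Site pairs were the 2 most abundant positions on the main strand of a gene, at most 10 kb apart, with a mean of 10 reads and at least 5% in the rarer site. They were fitted with proximal and distal counts as columns, a term per library and isoform by group. Both fits were tested on simulated data, in which most of the changes put in were not called. A list or comparison without a call is therefore no evidence that nothing changed.

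Replicate numbers of the same state and gradient part deviated together (correlations 0.73, 0.83, 0.64 and 0.71 over 6633 genes) and were taken as pairs from this check, not from the labels. The fit with a term for state by replicate number (replicate block) is given beside results it changes. That term is shared by the monosomes and polysomes of a state. Whether replicate numbers pair across gradient parts was not tested over all genes, so that p-values with the replicate term rest on that assumption. In polysomes of differentiating cells the muscle genes had the same order of replicates as in monosomes. Myog had 414 CPM in replicate 1 of both fractions, and 94 in cytosol and 91.8 in membrane replicate 2. Top2a and Id1 did not keep their order.

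Genes were named by size of change, from a mean of 10 CPM upward and with 1 direction in both replicate numbers, or as the highest or lowest-p members of a list; pairs likewise at 50 reads. Other called list members were named after their values were seen. The comparison, lists and tests were chosen with earlier results of these data known. Alternatives were DESeq2 1.42.0 (test or size factors), other filters, other library sets and leaving out each replicate. Gene classes came from RefSeq, with 11108 genes matched by symbol. Some genes that the naming rule selects are not reported here.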

Additional observations from a re-analysis of the deposited data

Results flagged for a closer look

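The difference between membrane and cytosol was tested between monosomes and polysomes of differentiating cells in edgeR's quasi-likelihood fit, and 406 genes with a lower and 52 with a higher value in monosomes passed. The log2 difference of differences of the named genes is given here. Among ER proteins it was -5.40 for H47, -5.18 for Lrpap1, -4.57 for Pdia6, -4.41 for Rpn1, -3.80 for Manf, -3.49 for Ssr2, -3.22 for Ssr3, -2.99 for Calr, -2.68 for Tram1 and -1.87 for Tusc3. Among surface, secreted and lysosomal proteins it was -5.13 for Sgcb, -4.86 for Fam132b, -4.79 for Bsg, -3.83 for Ctsd, -3.55 for Chrna1, -3.41 for Cd63 and -2.36 for Ctsb. It was higher in monosomes for Msh3 (3.98), Rraga (2.70), Mpp1 (2.40), Rsu1 (2.27), D4Wsu53e (2.25) and Sec22b (1.93).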

How the results depend on the processing

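With 2 libraries a group, the calls in monosomes depended on how the spread was estimated. The directions of the genes followed through the alternatives did not. Genes higher and lower in membrane monosomes (201 and 56) numbered 429 and 413 with DESeq2, 313 and 94 with a minimum mean of 10 CPM, 1497 and 1097 with the replicate block, 6 and 0 with only the 8 differentiating libraries, and 0 and 0 with only the 4 libraries compared (1233 at an unadjusted p under 0.05). With DESeq2 size factors the higher genes were 128. Leaving out 1 library gave 2 to 37 higher and 0 to 4 lower. Genes with a difference higher and lower in monosomes than in polysomes (52 and 406) numbered 132 and 658 with DESeq2, 707 and 1382 with the replicate block, and 10 and 214 with only the 8 libraries contrasted. Leave-outs gave 7 to 26 and 177 to 292. For differentiating against proliferating monosomes (0 and 0) DESeq2 gave 2 and 3 and the replicate block 69 and 112. For distal and proximal use (0 and 1) the replicate block gave 30 and 10, pairs at most 2 kb apart 0 proximal, and each leave-out 0 proximal. The distal shift of 0.20 was 0.23 with a pseudocount of 0.5, 0.15 with 5 and 0.15 with at least 50 reads.

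Not every named gene was followed through the alternatives. None of the genes and pairs that were followed changed sign under any alternative that gave a value: 1098 values kept their side of the threshold, 340 lost a call and 60 gained one. Myog, which was not among them, had a log2 difference between the monosome fractions of -0.36 in the main fit and 0.01 with the replicate block. The block removed no call. The planned split by protein class was not run. Depth limits low genes: the proximal site of Msh3 had 2 reads in each cytosol library.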
